A study of Solanum lycopersicum with 2 samples.

Results

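A set of 85 tomato genes was counted with at least 10 reads in a young leaf library and had no entry in the anther library of the same cultivar. They were chosen by these read counts, out of 25923 genes listed in either library and 22893 listed in the leaf library, so their presence in leaf and absence from the anther list describe the choice and are not a finding. The plants were Solanum lycopersicum of the cultivar Moneymaker, and their messenger RNA was measured by MACE, in which 1 tag is sequenced near the 3' end of each polyadenylated transcript and longer transcripts do not give more reads. The leaf group was 1 library of young leaves and the anther group was 1 library of anthers of mixed developmental stages. Both were taken from untreated glasshouse plants that were 8 weeks old. There were no replicates, so no p-value is given, and every difference below is a difference between these 2 libraries.

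Young leaves are made largely of photosynthetic mesophyll together with epidermis, hairs and veins. Anthers hold the cells that become pollen, the tapetum that feeds them and the wall layers around them, and these tissues change strongly as the anther matures. A transcript that reaches the leaf library and not the anther library can belong to a cell type that the anther has few of, or can be made at a lower level in the same cell types; in a library of a whole organ the 2 cannot be told apart. The files pair no identifier with a gene name or function, and 0 of the 85 identifiers matched a RefSeq table of 41476 tomato genes of assembly SLM_r2.1. The genes are therefore named by their Solyc identifiers, in which the digits before the letter g give the chromosome, the number after it gives the order along the chromosome, and the suffix after the point gives the version of the gene model. The leaf and anther labels could not be checked against marker genes for the same reason.

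The leaf library held 11534512 mapped reads and the anther library 12411606, and 72.5% and 69.2% of them lay on listed genes. In units of reads per 1000000 mapped reads (RPM), a single leaf read was worth 0.0867 and a single anther read 0.0806. The anther library was thus slightly deeper, and a gene at the leaf level of 10 reads, 0.867 RPM, would give 10.8 anther reads at the same level. The smallest listed count was 0.002 reads in each file, and 872 genes had under 1 read in the anther file, so the anther list was not limited by a minimum of 1 read. No entry was read as 0 reads, which allows up to 3 reads or 0.242 RPM in the anther library. Intervals given below are 95% intervals of counting error only, since reads without molecular identifiers need not be independent molecules.

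The 85 genes were low in the leaf. Their median was 20 reads or 1.73 RPM, the middle 50% lay between 13.5 and 31 reads, and 41 genes had 10 to under 20 reads. In all they held 2838 reads or 246 RPM, which was 0.0339% of the reads on listed leaf genes. Only 12 genes had at least 50 reads and 4 had at least 100. The gene with the most reads held 12.8% of the reads of the set, the 4 highest held 29.6% and the 10 highest 44.6%.

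The highest level belonged to Solyc03g120020.2 on chromosome 3, with 364 leaf reads or 31.6 RPM (exact Poisson interval 28.4 to 35.0) and 0 anther reads. Against the nominal limit of 3 anther reads, this leaf level was at least 131-fold higher. Such fold bounds, here and below, take the leaf count as it stood and leave out its counting error. They also leave out that the genes were chosen for their 0 anther reads, so the true folds can be lower. Solyc03g120020.2 stood apart from the next genes, whose intervals lay below its own. Solyc08g079770.2 on chromosome 8 had 181 leaf reads or 15.7 RPM (13.5 to 18.2) and 0 anther reads, at least 64.9-fold higher in leaf. Solyc09g074570.1 on chromosome 9 had 174 leaf reads or 15.1 RPM (12.9 to 17.5) and 0 anther reads, at least 62.4-fold higher. The levels of these 2 genes lay within each other's counting intervals. Solyc04g058160.1 on chromosome 4 had 122 leaf reads or 10.6 RPM (8.78 to 12.6) and 0 anther reads, at least 43.8-fold higher in leaf. Solyc12g100030.1 on chromosome 12 followed with 99 leaf reads, 8.58 RPM (6.98 to 10.4), and its interval overlapped that of Solyc04g058160.1.

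The remaining genes among the 10 highest were close to each other. Solyc04g079230.2 had 77.5 leaf reads or 6.72 RPM, Solyc10g078600.1 had 71 reads or 6.16 RPM and Solyc02g086700.2 had 68.5 reads or 5.94 RPM. Solyc09g089780.2 had 55 reads or 4.77 RPM, and Solyc03g033790.2 had 54 reads or 4.68 RPM. All 5 had 0 anther reads, and the interval of each overlapped that of its neighbours in the order. At the low end 7 genes lay at exactly 10 reads and another 3 had up to 11 reads.

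**Figure D1:**
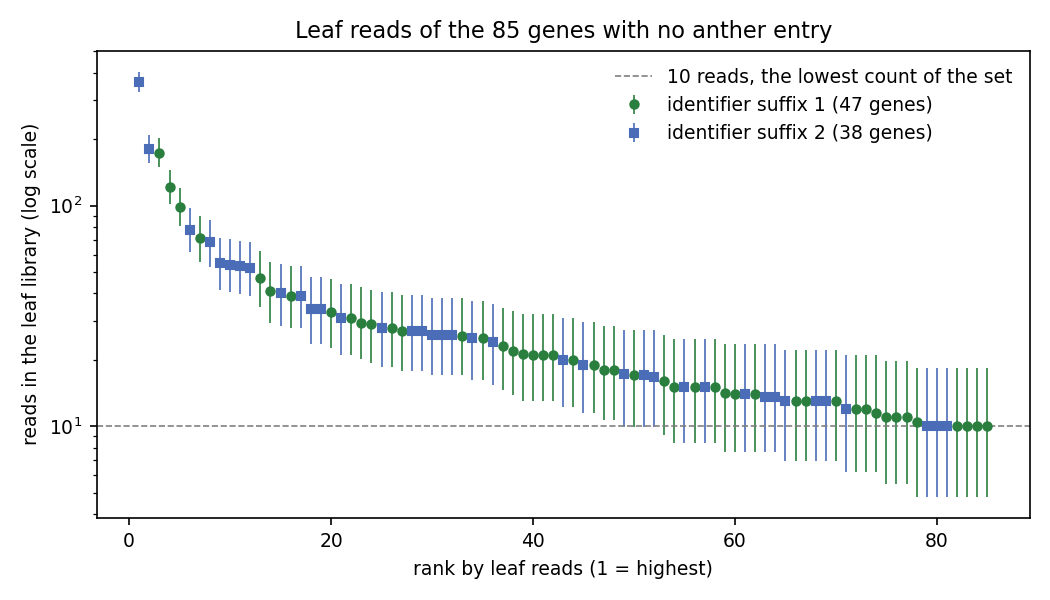
Reads in the leaf library (log scale) of the 85 genes, ordered from the highest to the lowest, with 95% exact Poisson intervals of the rounded count and with the colour and shape giving the identifier suffix. A single gene at 364 reads stands above the rest, 4 genes reach 100 reads, and the low end is flat at 10 reads, where the rule cuts the set off.

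The threshold cut through a steep continuous distribution. Another 1300 leaf genes without an anther entry had under 10 reads, so that the 85 genes were 6.14% of the 1385 leaf genes with no anther entry. Just outside the threshold 9 genes had 9 to under 10 reads, the highest of them 9.5, and 16 genes had 8 to under 9. On the anther side, 125 genes with at least 10 leaf reads had an anther entry of up to 1 read, 141 had over 1 and up to 2 reads, and 125 had over 2 and up to 3 reads. The first of these groups had a median of 18 leaf reads, close to the 20 of the 85 genes. Its highest gene was Solyc07g038160.2 on chromosome 7, with 256 leaf reads and 1 anther read, and this gene was named after its value was seen. The set thus stood at the end of a gradation in which a single anther read decided membership.

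Of the 16188 genes with at least 10 leaf reads, the 85 were 0.525%. That share was lower in classes with more leaf reads. It was 2.18% (41 of 1883 genes, Wilson interval 1.61 to 2.94) at 10 to under 20 leaf reads and 1.16% (32 of 2763, 0.822 to 1.63) at 20 to under 50. It was 0.330% (8 of 2425, 0.167 to 0.650) at 50 to under 100 reads and 0.0518% (4 of 7728, 0.0201 to 0.133) at 100 to under 1000. None of the 1389 genes with at least 1000 leaf reads lacked an anther entry (Wilson interval 0 to 0.276). The intervals treat genes as independent.

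**Figure D2:**
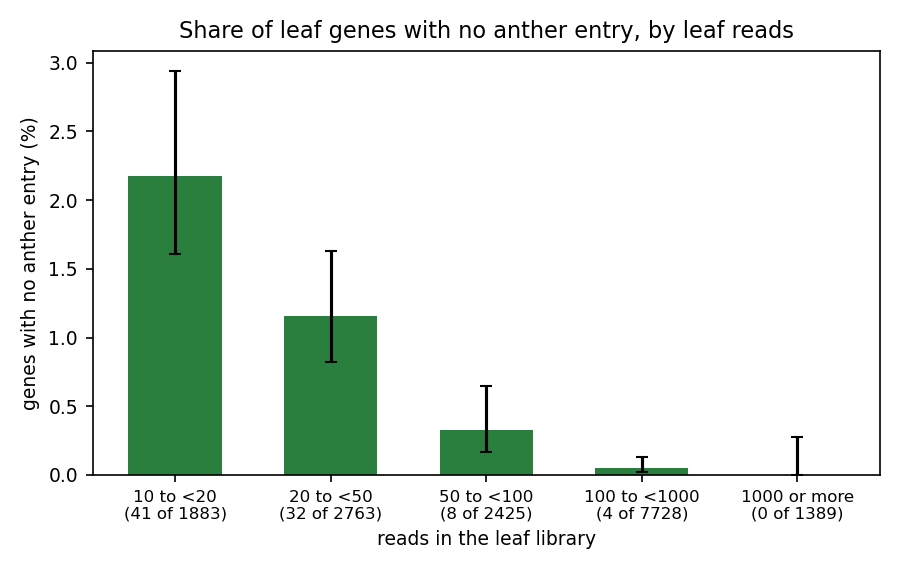
Share of leaf-listed genes with no anther entry in 5 classes of leaf reads, with Wilson 95% intervals and the number of genes under each bar. The share is 2.18% in the lowest class and 0 of 1389 genes in the highest.

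Measured against the limit of 3 anther reads, the lowest fold was 3.59 for the genes at 10 leaf reads, with a median of 7.17 and a highest value of 131. With the leaf counts as they stood and the anther set at 3 reads, all 85 genes were therefore at least 2-fold higher in leaf by construction. That class held 23.7% of the genes with at least 10 leaf reads. The counting error of the leaf reads is left out of these folds. At 10 leaf reads its interval reached down to 0.416 RPM, against 0.242 RPM for 3 anther reads, so with it the lowest members would not keep the 2-fold bound. A bound of at least 10-fold was reached by 26 of the 85 genes, against 4.15% of all genes with at least 10 leaf reads. Since the rule used this contrast, nothing is read from these counts. A filter on a mean of at least 1 RPM over both libraries was passed by 36 of the 85 genes, and of all 17137 genes that passed it 17.5% were at least 2-fold higher in leaf on the log2(RPM + 1) scale.

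The genes lay on all 12 chromosomes, and 1 lay on chromosome 0, the number given to sequence not placed on a chromosome. They were compared with 12266 genes listed in both libraries that had 10 to 364 leaf reads, called comparison genes below. Chromosome 12 had the most members, 11 of 85 or 12.9% (Wilson interval 7.38 to 21.7), and it held 6.81% of the comparison genes. Chromosomes 1 and 2 had 10 members each, 11.8% of the set, where they held 12.7% and 10.6% of the comparison genes. Chromosome 4 had 9 members and chromosome 10 had 8. The fewest were 3 members each on chromosomes 8 and 11, or 3.53% (1.21 to 9.87), against 7.30% and 6.70% of the comparison genes.

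On chromosomes 1 to 11 the share of comparison genes lay inside the interval of the members' share, and on chromosome 12 it lay just below that interval. With 13 chromosome numbers compared and no test run, the count on chromosome 12 is a description. Among genes with at least 10 leaf reads, the members numbered 11.7 per 1000 on chromosome 12, and between 2.45 on chromosome 8 and 8.12 on chromosome 10 per 1000 on the other chromosomes numbered 1 to 11. By reads chromosome 3 came first with 535 leaf reads over 6 members, of which Solyc03g120020.2 gave 364. The 11 members on chromosome 12 held 289.5 reads, and 99 of these came from Solyc12g100030.1.

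**Figure D3:**
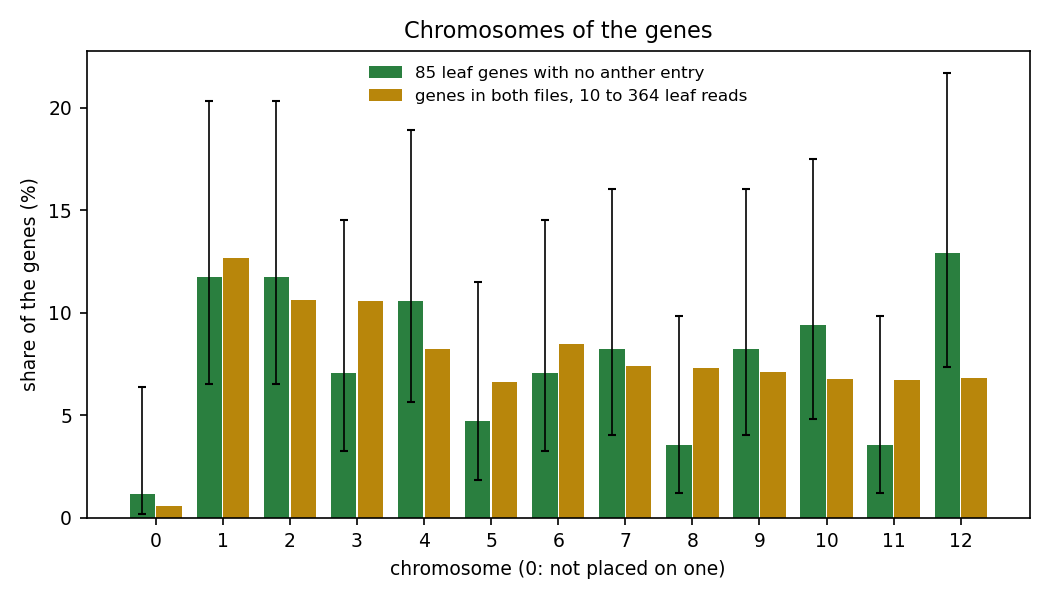
Share of genes on each chromosome for the 85 leaf genes with no anther entry (left bars, with Wilson 95% intervals) and for the 12266 genes listed in both libraries with 10 to 364 leaf reads (right bars). Chromosome 12 stands highest among the 85 genes at 12.9%, against 6.81% of the genes in both libraries.

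The members followed the ends of the identifier ranges, as other leaf genes did. When the range of numbers on each of chromosomes 1 to 12 was divided into 3 equal stretches, 29 of 84 members lay in the first, 5 in the middle and 50 in the last. These were 34.5% (25.2 to 45.2), 5.95% (2.57 to 13.2) and 59.5% (48.8 to 69.4) of the members, against 29.4%, 14.1% and 56.5% of the comparison genes. The middle stretch was thus sparser among the members, with a comparison share just above the upper end of the interval. Identifier numbers give gene order and not base distance.

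On the strand written as wat lay 50 of the 85 genes, 58.8% (48.2 to 68.7), and 35 lay on the strand written as cri. Of the comparison genes 50.4% lay on the wat strand, within the interval. Among the members the lean lay in the class of the lowest counts. At 10 to under 20 leaf reads 28 of 41 members lay on the wat strand, 68.3% (53.0 to 80.4) against 49.3% of comparison genes in that class. At 20 to under 50 reads 16 of 32 members did, and at 50 or more reads 6 of 12. The lean did not go on below the threshold. Of the 1300 leaf genes with no anther entry and under 10 reads, 50.8% (48.1 to 53.5) lay on the wat strand. The share was 53.3% for a set with a minimum of 5 leaf reads and 54.3% when an anther entry of up to 1 read was allowed. The difference between the classes was not tested.

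Gene models with the identifier suffix 1 made up 47 of the 85 genes, 55.3% (44.7 to 65.4), and 38 had the suffix 2. Of the comparison genes 30.5% had the suffix 1. The excess was not particular to the members. Among genes with at least 10 leaf reads, the share was 60.8% at up to 1 anther read and 62.4% at over 1 and up to 2. It was 48.0% at over 2 and up to 3 anther reads, 48.1% at over 3 and up to 10, and 23.5% at over 10. Low genes carried this suffix more often in general, and the members were lower than the comparison genes, whose median was 80 leaf reads. Within classes of leaf reads the members' shares were 61.0% (45.7 to 74.3), 56.3% (39.3 to 71.8) and 33.3% (13.8 to 60.9) at 10 to under 20, 20 to under 50 and 50 or more reads. The comparison genes had 47.1%, 43.0% and 22.1% in the same classes. In each class the comparison share lay inside the members' interval, in its lower part. Weighted to the members' makeup over the 3 classes, the comparison share was 42.0%, below the lower end of the interval for the whole set.

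The suffix also went with the chromosome. All 11 members on chromosome 12, all 3 on chromosome 11 and 7 of 8 on chromosome 10 had the suffix 1, and so had 99.8%, 99.5% and 75.3% of the comparison genes there. On the other chromosomes, chromosome 0 included, 26 of 63 members had it, 41.3%, against 15.0% of the comparison genes. Chromosome 1 had 4 of 10 members with the suffix 1 where 2.95% of its comparison genes had it, and chromosome 3 had 0 of 6 against 17.9%. These shares by chromosome were not matched for reads, and the members were lower than the comparison genes. Weighted over both chromosomes and classes of reads, the comparison share was 40.7%. Members with the suffix 1 had a median of 18 leaf reads and those with the suffix 2 a median of 25.5 reads, and 8 of the 12 genes with at least 50 reads had the suffix 2.

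Few members lay close to another member in identifier number. Close pairs were not counted in equally large sets of comparison genes. Whether the members clustered more or less than such genes was therefore not tested. Along each chromosome the median step between consecutive members was 2440 in identifier number, where adjacent gene models are commonly 10 apart. With numbers at most 20 apart there was 1 pair, Solyc09g005020.1 and Solyc09g005040.1 on chromosome 9. Solyc09g005020.1 had 22 leaf reads or 1.91 RPM on the cri strand, and Solyc09g005040.1 had 25 leaf reads or 2.17 RPM on the wat strand. Both had 0 anther reads, both had the suffix 1, and 0 listed genes lay between them.

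Widening the distance to 100 added 3 pairs, on chromosomes 2, 4 and 6. On chromosome 4, Solyc04g079480.2 on the cri strand had 25 leaf reads and Solyc04g079520.2 on the wat strand had 31, with 0 listed genes between them. On chromosome 6, Solyc06g072620.2 had 26 leaf reads and Solyc06g072650.1 had 16, both on the wat strand with 2 listed genes between. On chromosome 2, Solyc02g031730.1 had 27.1 leaf reads and Solyc02g031790.1 had 13, both on the wat strand with 4 listed genes between. The other 77 members, the one on chromosome 0 among them, had no member within 100 numbers.

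Counts were fractional for 16 of the 85 genes, 18.8% (11.9 to 28.4), against 16.3% of the comparison genes. A fraction is taken here as a read shared between several places, which the file headers do not state. The share was similar in the 3 classes of reads, at 19.5%, 18.8% and 16.7% from the lowest to the highest. Of the 16 fractional counts 7 ended in 0.5, and 2 were multiples of 0.25 that did not. Solyc04g079230.2 with 77.5 reads and Solyc02g086700.2 with 68.5 reads were the only fractional genes among the 10 highest. The remaining 7 had other fractions, such as the 40.2 reads of Solyc02g069060.2, the 33.8 reads of Solyc10g009530.2 and the 14.1 reads of Solyc01g009700.1. The other 69 genes had whole counts, and their median of 20 reads was close to the 19.3 of the fractional genes.

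The highest read peak of a gene, as the authors deposited it, was divided by the gene's leaf reads. Over the 84 members whose peak was no higher than the reads, the median was 42.3% (distribution-free interval 37.5 to 46.7). The comparison genes had a median of 30.8%, but this ratio is larger in low genes. At 10 to under 20 leaf reads the medians were 47.1% (41.7 to 52.8) for members and 42.1% for comparison genes. At 20 to under 50 reads they were 38.1% (34.5 to 46.0) and 38.5%. At 50 or more reads they were 36.4% (25.5 to 59.2) over 11 members and 27.7% over the comparison genes. In each class the comparison median lay inside the members' interval.

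Single members ranged widely in this ratio. None was as low as the lowest comparison gene, at 7.41%, which comes from a far larger set that can reach lower by size alone. The lowest value among members was 15.4%, in Solyc01g081160.2 on chromosome 1 and in Solyc06g011370.2 on chromosome 6, each with 26 leaf reads and a peak of 4. The highest value within the reads was 100%, in Solyc05g013620.1 on chromosome 5, where the peak of 11 equalled the 11 reads. Solyc09g074570.1 was the 1 member with a peak higher than its own count, 220 against 174 reads or 126%. The comparison genes held 59 such cases among 12266. The headers do not say how the peak was computed, so the ratio need not be a true share of the gene's reads. Members with the suffix 1 had a median ratio of 49.9% and those with the suffix 2 a median of 36.6%. The comparison genes showed the same order in each class of reads, for example 48.7% and 33.3% at 20 to under 50 reads.

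**Figure D4:**
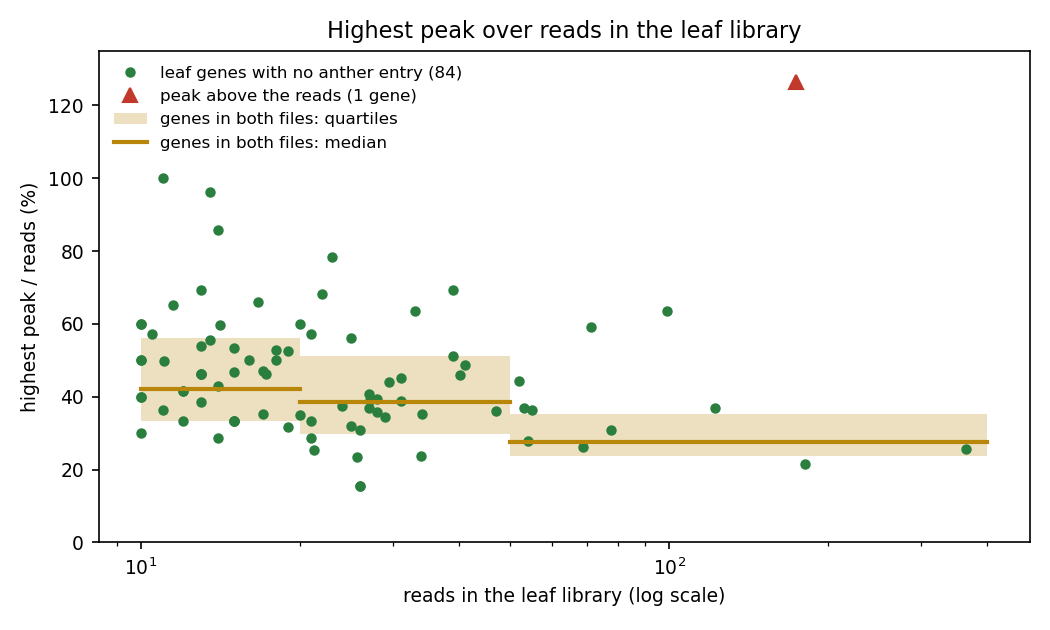
Highest peak as a percentage of reads against leaf reads (log scale) for the 85 genes (points), with the median (line) and quartiles (band) of genes listed in both libraries in 3 classes of reads. Most points lie in or near the bands, and Solyc09g074570.1 lies alone above 100%, at 126%.

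The genes next to the members more often had a higher level in leaf than in anther, compared with the genes next to comparison genes. For each of 84 members off chromosome 0, the nearest listed gene on each side within 20 identifier numbers that was not itself a member was taken, which gave 155 flanking genes. Their median log2((leaf RPM + 1) / (anther RPM + 1)) was 0.21 (distribution-free interval 0.09 to 0.33), against -0.11 for the 22988 flanks of comparison genes. Those 22988 flanks were 17500 distinct genes, since a gene can flank more than 1 comparison gene, while the members' 155 flanks were all distinct. Of the members' flanks 42 (27.1%) were at least 2-fold higher in leaf and 21 (13.5%) at least 2-fold higher in anther. Of the comparison genes' flanks these shares were 12.5% and 16.0%. The members' flanks were the lower ones in both libraries, and more so in anther. Their median levels were 2.25 RPM in leaf and 1.29 RPM in anther. Flanks of comparison genes had medians of 3.81 RPM in leaf and 4.75 RPM in anther. No anther entry was found for 12 of the 155 flanks (7.74%), against 3.72%, and no leaf entry for 10 (6.45%), against 9.39%.

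A smaller shift was seen next to other genes higher in leaf. Flanks of the comparison genes that were themselves at least 2-fold higher in leaf had a median of 0.01, with 18.4% at least 2-fold higher in leaf and 12.6% in anther. Limited to such genes with under 50 leaf reads, the median was 0.03 and the shares were 18.1% and 11.8%. The members' median lay above both values with its whole interval. For the genes with under 50 leaf reads, however, the interval of 0.01 to 0.09 reached the lower end of the members' interval. The intervals treat flanks as independent, also those of the same gene. These comparison genes all had an anther entry, so they were not matched to the members in anther level. The flank median also depended on the rule for membership. It was 0.12 at a minimum of 5 leaf reads, 0.10 when an anther entry of up to 1 read was allowed and 0.28 at a minimum of 20 leaf reads. These differences were not tested, and flanks and members of 1 library share its depth. On the members' own strand alone, 116 flanks had a median of 0.22 and 29.3% were at least 2-fold higher in leaf.

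Some members lay beside abundant leaf genes, and 5 of the 155 flanks had at least 100 RPM in leaf (3.23%, against 4.99% for comparison genes). Solyc04g058160.1, with its 122 leaf reads, lay 10 numbers from Solyc04g058150.2 on the same strand, which had 2183 RPM in leaf and 188 RPM in anther. Solyc05g013620.1, with 11 reads and a peak of 11, lay 10 numbers from Solyc05g013630.1 on the same strand, which had 153 RPM in leaf and 1.13 RPM in anther. Solyc04g077380.2, with 16.7 fractional reads, lay 10 numbers from Solyc04g077390.2 on the same strand, with 145 RPM in leaf and 1.49 RPM in anther. Solyc02g065210.2, with 13.5 reads and a peak of 13, lay 10 numbers from Solyc02g065220.2 on the same strand, with 127 RPM in leaf and 2.18 RPM in anther. The fifth, Solyc09g007700.2, lay on the opposite strand 10 numbers from Solyc09g007710.2, a member with 17 leaf reads, and had 178 RPM in leaf and 69.4 RPM in anther. Whether reads of these neighbours were counted in the members was not tested. Apart from Solyc04g058160.1 and Solyc05g013620.1 these members, and the flanking genes here and below, were named after their values were seen.

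The flanks of the 3 highest members had under 100 RPM in leaf. Solyc03g120020.2 lay between Solyc03g120010.2, with 73.7 RPM in leaf and 116 RPM in anther, and Solyc03g120030.1, with 0.347 RPM in leaf and 3.06 RPM in anther. Both flanks were on the opposite strand and both were lower in leaf. Solyc08g079770.2 lay between Solyc08g079760.2, with 0.433 RPM in leaf and 0.322 RPM in anther, and Solyc08g079790.1, with 2.86 RPM in leaf and 0.725 RPM in anther. Solyc09g074570.1 lay between Solyc09g074560.2, with 60.3 RPM in leaf and 32.8 RPM in anther, and Solyc09g074590.1, with 0.0433 RPM in leaf and no anther entry, both on its own strand.

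**Figure D5:**
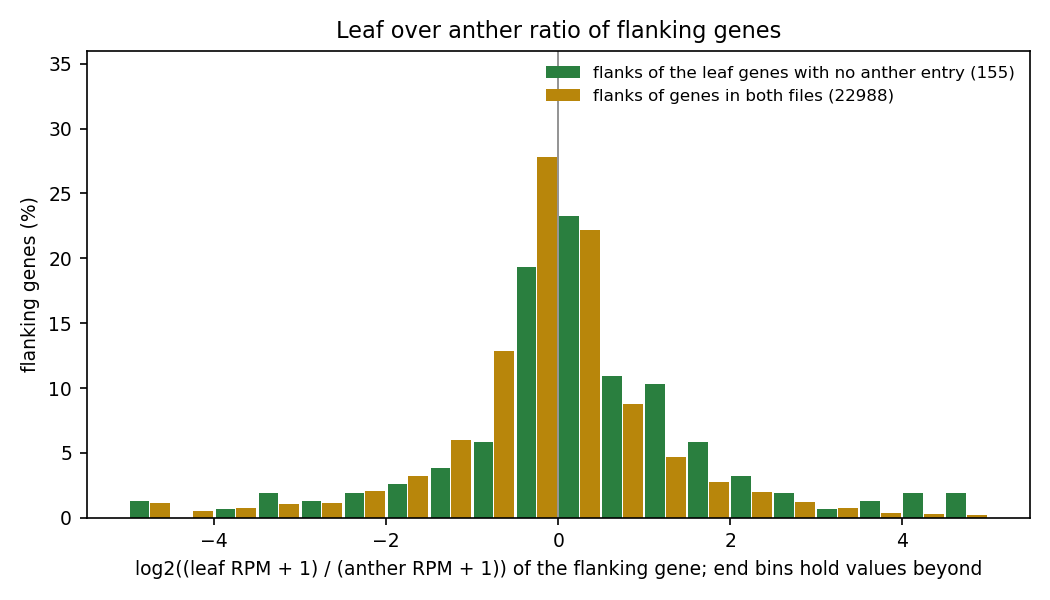
Log2 ratio of leaf over anther for genes flanking the 85 genes (155 flanks, left bars) and flanking genes listed in both libraries (22988 flanks from 17500 distinct genes, right bars), as percentages in bins of the ratio, with the end bins holding all values beyond. The members' flanks lie further to the right, with a median of 0.21 against -0.11.

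Set beside the mirror set, 592 anther genes with at least 10 reads and no leaf entry, the 85 leaf genes had the suffix 1 in 55.3% against 63.5% (59.6 to 67.3) and wat-strand models in 58.8% against 48.3% (44.3 to 52.3). Fractional counts made up 18.8% in the leaf set against 12.7% (10.2 to 15.6) in the anther set, and the median peak ratios were 42.3% and 41.7%. The intervals of the 2 sets overlapped in each of these measures, and the differences were not tested. The anther set had a median of 27 anther reads, against 20 leaf reads in the leaf set. The 2 sets were not matched for reads, on which the suffix share and the peak ratio depend.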

How the data were processed

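The members, lists and comparisons were chosen with earlier results of these data known. Each file lists estimated counts of reads per gene (all hits), deposited by the authors, with some fractional values. The authors also deposited a scaled value, RPM here, which equals the count over all mapped reads times 1000000, without length correction, although its header speaks of transcripts. The mapped reads are a whole count per library, per the file headers. The highest peak is a signal from the authors, and how they obtained it is not stated. FastQC is named per the submitters' processing notes; the aligner, counter, genome build and annotation were not given in the sources used here.

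Files were joined by identifier, and a gene with no entry was taken as 0. A count more than 1e-06 from a whole number was called fractional, and counts were rounded for Poisson intervals. Shares have Wilson 95% intervals, and medians have distribution-free 95% intervals from order statistics. The classes of reads, the 3 stretches, the weighted shares and the flanks of leaf-higher genes were added after the data were seen. Fold bounds set the anther at 3 reads and leave out the counting error of the leaf reads. They make no allowance for the choice of genes by their anther count. The functions were tested on simulated data. The planted genes had higher mean levels than the members, so selection at low counts was not tested. Named genes are the 10 with the most leaf reads, those in groups of neighbours and those with the highest and lowest peak ratio; others are said to be named after their values were seen, or are examples of fractional counts. No sequence is shown, because no sequence file was used here. Python 3.11.15, pandas 2.3.3, numpy 2.4.6, scipy 1.17.1 and matplotlib 3.10.9 were used.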

Additional observations from a re-analysis of the deposited data

How the results depend on the processing

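Of 45 recomputed values, 33 kept to the interval of the reported value or within 1.5 times the reported count. The number of genes, 85, became 169 at a minimum of 5 leaf reads, 44 at 20 leaf reads, 210 when an anther entry of up to 1 read was allowed and 476 at up to 3 anther reads, the last chosen after seeing the data; each follows from the wider or narrower rule. The 2 members with a neighbouring member became 9 at 5 leaf reads, 23 with an anther entry of up to 1 read, 0 at numbers at most 10 apart and 8 at numbers at most 100 apart. The median peak ratio of 42.3% was 36.9% at 20 leaf reads, where the low genes are left out. The share of fractional counts was 0 with whole counts only, by construction. The median log2 ratio of flanking genes, 0.21, was 0.52 with a pseudocount of 0.1, against -0.21 for flanks of comparison genes. With the same 85 genes it was above the comparison value in each of 5 settings of the flank measure. The median lowest fold, 7.17, was 21.5 against 1 anther read in place of 3. No paired analysis was possible because the leaf and the anther group hold 1 library each, and for that reason none was left out. Depth limits the low genes: at 10 leaf reads the Poisson interval is 4.80 to 18.4 reads.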
